A study of Mus musculus with 29 samples.

Results

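The 39 genes described here encode the proteins that build and run the DNA replication fork, supply it with deoxynucleotides and package the new DNA into chromatin, and they were taken from 19938 genes measured on 29 Affymetrix expression arrays of C2C12 cells. C2C12 is an established mouse myoblast line that divides in serum-rich medium and can fuse into myotubes. The genes were chosen by function and fall into 8 role groups. Where several probe sets carried a gene's symbol and no other, the one with the highest mean over the 27 transfected arrays stood for the gene. All transfected cells were proliferating C2C12 myoblasts at passage 27 that received 50 nM of an oligonucleotide for 36 h. The 7 mimic groups received a double-stranded copy of miR-1, miR-22, miR-34a, miR-365, Let-7b, miR-29a or miR-145, with 3 independent experiments each. The control received the AllStar non-targeting oligonucleotide in 3 experiments, and each control array had a technical repeat that was averaged with it, so 24 values entered the comparisons. A single array each of untransfected cells labelled as differentiated myotubes and as proliferating myoblasts completed the series. All groups come from a single cell line, and P values therefore measure the spread between experiments on that line. Levels are log2 values made by RMA, a method that corrects background and equalises the distributions of the arrays, and every difference below is a difference of such log2 values.

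Before S phase the origin recognition complex marks the places where replication can start. Cdc45 and the GINS complex then join the MCM ring to form the active helicase, DNA polymerase alpha and primase lay down primers, and polymerases delta and epsilon extend them while held on the template by the PCNA clamp, which replication factor C loads. RPA covers the single-stranded DNA, Fen1 and Lig1 finish the lagging strand, ribonucleotide reductase, thymidine kinase, thymidylate synthase and dUTPase feed the fork with deoxynucleotides, and Slbp and chromatin assembly factor 1 couple histone supply to the new DNA. Many of these genes are transcribed with the cell cycle under E2F factors and are turned down when myoblasts leave the cycle to differentiate. MicroRNAs lower messenger RNAs that pair with their seed, bases 2 to 8 of the mature strand.

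The mature strands are shown because the seed is what sets the transfected mimics apart. The RefSeq table (GRCm38.p6) gave 5 of the 7, in which the seed is in capitals. These 5 carry 5 different seeds, so no pair of them shares one. The sample titles name each microRNA without its arm, so the strands shown are those assumed for the mimics. The other mimics, miR-1 and miR-145, were taken as miR-1a-3p and miR-145a-5p, for which no sequence was given.
mmu-miR-34a-5p: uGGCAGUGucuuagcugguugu
mmu-miR-22-3p: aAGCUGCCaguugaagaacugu
mmu-miR-365-3p: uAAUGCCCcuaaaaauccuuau
mmu-let-7b-5p: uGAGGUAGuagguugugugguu
mmu-miR-29a-3p: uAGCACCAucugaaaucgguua

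A few arrays stood apart. The 6 interferon-response genes followed as a check averaged 1.47 to 5.54 above the control mean in the 3 miR-145 values, with the third experiment at 5.54. Some results under miR-145 are therefore also given without that experiment, and the others include it. In the mimic groups and the control the myoblast genes Myod1, Myf5, Des, Cdh15 and Itga7 were well expressed, each at 9.94 or more in all 24 values. The array labelled as proliferating myoblasts did not look like the transfected myoblasts in every respect. Its level of the early differentiation factor Myog was 11.56 and its level of the muscle creatine kinase Ckm was 11.76, against highest values of 11.24 and 11.23 among the 24 transfected values. Its level of the division marker Mki67 was 11.09, inside the range of 10.92 to 12.21 among those 24 values.

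The replication genes were lower under 4 of the mimics in numbers far above the share of all genes. Under miR-1, 35 of 39 fell by limma's moderated test with Benjamini-Hochberg adjustment over all genes (adjusted P below 0.05), beside 10.5% of all genes. Under miR-34a 28 of 39 fell (6.06% of all genes), under miR-22 26 of 39 fell (5.67%), and under miR-365 20 of 39 fell (8.33%). Under Let-7b 5 of 39 fell (5.46%), under miR-29a 2 of 39 (4.78%) and under miR-145 2 of 39 (3%). The experiment numbers were taken to pair miR-22, miR-34a, miR-365 and miR-29a with the control. With the experiment number as a block, 30 of 39 fell under miR-22, 29 under miR-34a, 23 under miR-365 and 7 under miR-29a. Calls over all 19938 genes, lower and higher together, were then 4018, 3385, 5130 and 3142. The block added Cdc45, Pole2, Rrm2 and Chaf1b under miR-22 and Pola2 under miR-34a. It added Pold3, Pole2 and Rfc1 under miR-365, and Orc1, Pold1, Pole2, Rfc1 and Dut under miR-29a. Counts by role group below are from the fit without the block. The same block gave 35 lower under miR-1, 11 under Let-7b and 3 under miR-145, with 5773, 3298 and 2444 calls over all genes. The median difference of the 39 genes from control was -0.88 under miR-1, -0.40 under miR-34a, -0.39 under miR-22, -0.35 under miR-365, -0.15 under Let-7b, -0.12 under miR-145 and -0.11 under miR-29a, whereas the median over all genes lay between -0.01 and 0.04. The count under miR-22 depended on 1 experiment, since 13 of 39 fell when the third miR-22 value was left out. Calls over all 19938 genes also dropped then, to 1681 lower and higher together, against 1130 lower and 1758 higher with that value. All of these comparisons share the same 3 control values. In cultures, fewer cells in S phase and less of these messenger RNAs per cell cannot be told apart.

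The mean over the 39 genes, set against the mean of the 3 control values, was -0.65, -0.82 and -0.98 in the miR-1 experiments. It was -0.39, -0.42 and -0.39 under miR-34a, -0.37, -0.26 and -0.50 under miR-22, and -0.33, -0.21 and -0.43 under miR-365. Each of those 12 values lay below every control value. The mean was -0.09, -0.22 and -0.21 under Let-7b, -0.09, -0.19 and -0.06 under miR-29a, and -0.01, -0.12 and -0.20 under miR-145. These values were mostly closer to the control values, though Let-7b reached -0.22, beside -0.21 under miR-365. They also lay below every control value, the nearest at a level of 10.34 under miR-145 against 10.35 in the control. Lying below the control thus did not set miR-1, miR-34a, miR-22 and miR-365 apart. Gene by gene, all 3 mimic values lay below all 3 control values for 35 of 39 genes under miR-1 (15.2% of all genes), 33 under miR-34a (14.2%), 33 under miR-22 (13.6%) and 32 under miR-365 (14.5%). The counts were 18 under Let-7b (13.5%), 12 under miR-29a (11.3%) and 9 under miR-145 (8.79%).

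**Figure D1:**
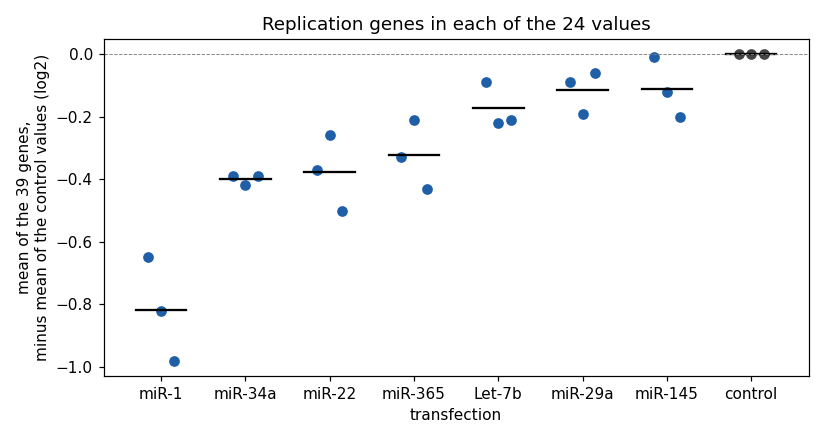
Mean log2 level of the 39 replication genes in each experiment (points, 3 per group) minus the mean of the 3 control values, by transfection, with group means as bars. The miR-1 values lie between -0.98 and -0.65, and the miR-34a, miR-22 and miR-365 values between -0.50 and -0.21.

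No replication gene rose past the threshold under miR-1, miR-22, miR-34a, miR-365, Let-7b or miR-29a in limma's test. The shares of all genes that rose were 13.2%, 8.82%, 5.62%, 11.7%, 5.46% and 5.54% in that order of mimics. Among 39 genes a count of 0 is not far below the smaller of these shares. At an unadjusted P below 0.05 the counts of higher members were 1, 0, 0, 2, 1 and 1 in the same order. Those counts are given without shares of all genes. With the experiment as a block, 1 member passed as higher under miR-365, the GINS subunit Gins4, by 0.16 ± 0.05 (SE, adjusted P = 0.025). Calls over all 19938 genes under miR-365 were then 5130, lower and higher together. Under miR-145 only Rfc5 passed as higher (3.85% of all genes). Over the 7 differences from control together, limma's F test found 37 of 39 genes to differ, beside 49.4% of all genes. The 2 that did not pass were Orc3 (adjusted P = 0.0503) and Orc4 (adjusted P = 0.188). Gins1, Pold3, Pcna, Rfc2 and Chaf1a passed as lower under 5 mimics each, and no gene passed under all 7.

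**Figure D2:**
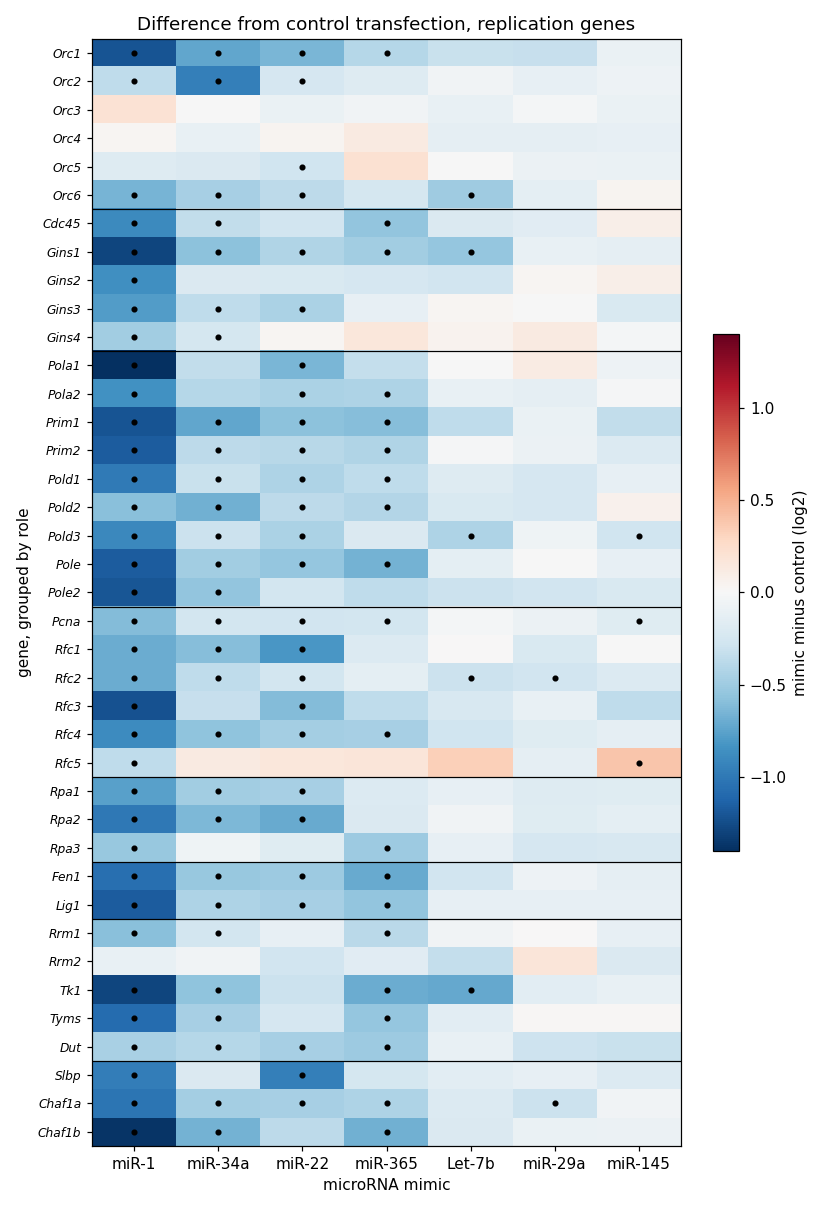
Difference from control (log2 mean of 3 mimic values minus mean of 3 control values) for the 39 genes in rows, grouped by role from the origin recognition complex at the top to chromatin assembly at the bottom, and the 7 mimics in columns, with a dot where limma's adjusted P was below 0.05. The miR-1 column is dotted for 35 genes, and the rows of Orc3, Orc4 and Rrm2 carry no dot.

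The origin recognition complex had 3 of its 6 subunits lowered under miR-1, the smallest share of the 8 role groups. Orc1, Orc2 and Orc6 fell under miR-1 and Orc3, Orc4 and Orc5 did not pass. Orc1, the large ATPase subunit whose level follows the cell cycle, had 7.59, 7.28 and 7.38 under miR-1, against 8.78, 8.52 and 8.58 in the control. Every miR-1 value was below every control value, and the difference was -1.21 ± 0.12 (SE, n = 3 each; adjusted P = 1.1e-07). Orc1 also fell under miR-34a (-0.73 ± 0.12), miR-22 (-0.64 ± 0.12) and miR-365 (-0.40 ± 0.12). Orc6, a small DNA-binding subunit, fell by 0.65 under miR-1, by 0.46 under miR-34a, by 0.37 under miR-22 and by 0.50 under Let-7b, where it was the only subunit that passed.

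Orc2, a core subunit, showed the largest decrease of the 39 genes under miR-34a. Its level was 9.65, 9.58 and 9.61 under miR-34a, against 10.51, 10.60 and 10.62 in the control. The other mimic values were 10.32, 10.10 and 10.24 under miR-1, 10.34, 10.46 and 10.25 under miR-22, 10.40, 10.45 and 10.33 under miR-365, 10.56, 10.50 and 10.54 under Let-7b, 10.39, 10.37 and 10.64 under miR-29a and 10.59, 10.50 and 10.44 under miR-145. The miR-34a values were the lowest of the 24 and did not overlap those of any other transfection. The difference from control under miR-34a was -0.96 ± 0.08, a 1.95-fold decrease (adjusted P = 1.3e-08), against -0.36 ± 0.08 under miR-1 and -0.23 ± 0.08 under miR-22. Set against the mean of the other 6 mimics, Orc2 was lower under miR-34a by -0.80 ± 0.06 (adjusted P = 2.1e-09), and this held when miR-1 was left out of that mean (-0.83, adjusted P = 1.3e-09).

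Orc3, another core subunit, had 11.26, 11.40 and 11.54 under miR-1, against 11.14, 11.21 and 11.25 in the control. All 3 miR-1 values were above the control values, but the difference of 0.20 (95% interval 0.03 to 0.37) had an adjusted P of 0.078. With the experiment as a block it passed (adjusted P = 0.011), though miR-1 was not among the mimics taken as paired with the control. Against the other 6 mimics Orc3 was the 1 gene higher under miR-1, by 0.26 ± 0.06 (adjusted P = 0.002), which did not pass without the third miR-1 experiment (0.19, adjusted P = 0.059). Orc4, an ATPase-fold subunit, differed from control by 0.03 under miR-1 (95% interval -0.18 to 0.23) and passed under no mimic. Orc5 fell under miR-22 by 0.28 ± 0.09 (adjusted P = 0.038). Its levels under miR-365 were 9.60, 9.55 and 9.50, against 9.39, 9.38 and 9.24 in the control, and the difference of 0.21 did not pass (adjusted P = 0.1). Those miR-365 values were the highest of the 24, and against the other 6 mimics Orc5 was higher under miR-365 by 0.35 ± 0.07 (adjusted P = 0.00034).

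**Figure D3:**
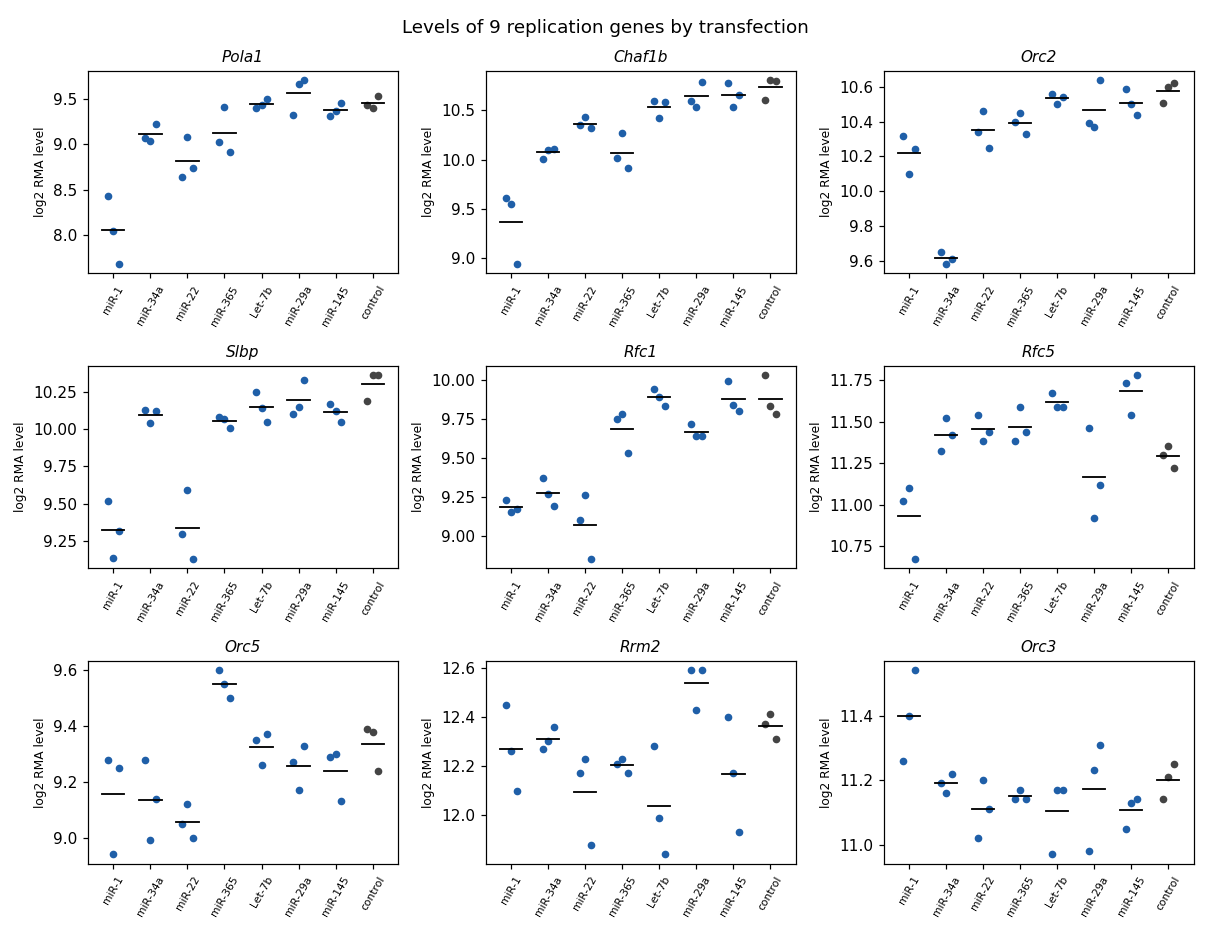
Levels (log2 RMA) of 9 replication genes in the 3 experiments of each transfection (points) with group means (bars), the 7 mimics from the left and the control at the right. Orc2 is lowest under miR-34a, at 9.58 to 9.65, Slbp is low under miR-1 and miR-22 only, and Orc3 is highest under miR-1, at 11.26 to 11.54.

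All 5 genes of the helicase cofactors Cdc45 and GINS fell under miR-1, with a median of -0.86, and 4 fell under miR-34a, 2 under miR-22, 2 under miR-365 and 1 under Let-7b. Gins1 had 7.65, 7.36 and 7.13 under miR-1, against 8.70, 8.49 and 8.81 in the control. The difference was -1.29 ± 0.13, a 2.44-fold decrease (adjusted P = 1.5e-07), and none of the values overlapped. Gins1 also fell by 0.57 under miR-34a, by 0.54 under Let-7b, by 0.49 under miR-365 and by 0.42 under miR-22. Gins4 had 10.40, 10.40 and 10.19 under miR-1, 10.58, 10.57 and 10.57 under miR-34a and 11.04, 10.97 and 10.94 under miR-365, against 10.83, 10.84 and 10.80 in the control. It fell under miR-1 (-0.49 ± 0.06) and miR-34a (-0.25 ± 0.06), and its 3 miR-365 values all lay above the control. Cdc45, which holds the helicase together, fell under miR-365 by 0.55 ± 0.09 (adjusted P = 0.00017) and was lower under miR-365 than under the other 6 mimics by -0.25 ± 0.07 (adjusted P = 0.011).

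All 9 genes of the polymerases and primase fell under miR-1, with a median of -1.16, the lowest of the 8 role groups. Of these, 8 fell under miR-22, 7 under miR-34a, 6 under miR-365, and 1 each under Let-7b and miR-145, which was Pold3 in both. Pola1, the catalytic subunit of polymerase alpha, had 8.43, 8.05 and 7.68 under miR-1, against 9.43, 9.40 and 9.53 in the control. Its difference of -1.40 ± 0.15 was the largest decrease among the 39 genes, 2.64-fold (adjusted P = 3.4e-07). Pola1 also fell under miR-22 (-0.64 ± 0.15), where its values were 8.64, 9.08 and 8.74. Prim2, the large primase subunit and the gene of this group with the largest F, had 9.55, 9.45 and 8.98 under miR-1, against 10.43, 10.53 and 10.52 in the control, and its range over the other 18 mimic values was 9.99 to 10.51. The difference under miR-1 was -1.17 ± 0.10 (adjusted P = 3.5e-08).

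Pola1 was also the gene of this group with the largest decrease under miR-22. Under miR-34a it was Prim1, the catalytic primase subunit, which fell by 0.73 ± 0.16 (adjusted P = 0.004), and under miR-365 it was Pole, the catalytic subunit of polymerase epsilon, which fell by 0.66 ± 0.14 (adjusted P = 0.0016). Pold2, an accessory subunit of polymerase delta, had 10.88, 11.34 and 11.03 under miR-34a, against 11.62, 11.88 and 11.76 in the control. It fell under miR-34a by 0.67 ± 0.10 and was lower there than under the other 6 mimics by -0.38 ± 0.08 (adjusted P = 0.0019). Pold3, a further delta subunit, had 10.38, 10.16 and 10.16 under Let-7b, against 10.67, 10.62 and 10.70 in the control, and fell by 0.43 ± 0.08 (adjusted P = 0.00081).

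The PCNA clamp and all 5 subunits of its loader fell under miR-1, with a median over the 6 genes of -0.69. Pcna had 12.54, 12.42 and 12.36 under miR-1, against 13.02, 13.06 and 13.07 in the control. The difference was modest, -0.61 ± 0.05, but the spread was small (adjusted P = 8.5e-09), and Pcna had the largest F of this role group. Pcna fell by 0.27 under miR-22, by 0.26 under miR-34a and by 0.26 under miR-365. Of the 6 genes, 5 fell under miR-22, 4 under miR-34a, 2 under miR-365 and 1 each under Let-7b, miR-29a and miR-145. The single genes under Let-7b and miR-29a were both Rfc2, which fell by 0.30 ± 0.08 and 0.27 ± 0.08.

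Rfc1, the large loader subunit, was lower in 3 mimic groups. Its levels were 9.23, 9.15 and 9.17 under miR-1, 9.37, 9.27 and 9.19 under miR-34a and 9.10, 9.26 and 8.85 under miR-22, against 10.03, 9.83 and 9.78 in the control. These 9 values lay below all others, and the remaining mimic values ranged from 9.53 to 9.99. The decrease under miR-22 was the largest, -0.81 ± 0.09 (adjusted P = 2.6e-06). Against the other 6 mimics Rfc1 was lower under miR-22 by -0.52 ± 0.07 (adjusted P = 1.3e-05) and under miR-34a by -0.29 ± 0.07 (adjusted P = 0.0077). Rfc5, a small loader subunit, behaved unlike the rest. Its values were 11.02, 11.10 and 10.67 under miR-1, 11.67, 11.59 and 11.59 under Let-7b, 11.46, 10.92 and 11.12 under miR-29a and 11.73, 11.54 and 11.78 under miR-145, against 11.30, 11.35 and 11.22 in the control. It fell under miR-1 by 0.36 ± 0.11 (adjusted P = 0.019), and rose under miR-145 by 0.39 ± 0.11 (adjusted P = 0.035). Without the third miR-145 experiment the difference was 0.34 (adjusted P = 0.16), and then no gene passed under miR-145 in either direction. The rise of Rfc5 also did not pass without the first miR-145 experiment (0.37, adjusted P = 0.087) or without any single control value. Under Let-7b Rfc5 did not pass, but with the experiment as a block it did, at 0.33 (adjusted P = 0.038). Rfc5 was the only gene lower under miR-29a than under the other 6 mimics, by -0.26 ± 0.09 (adjusted P = 0.033).

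The 3 RPA subunits all fell under miR-1. Rpa1, the large subunit that binds the DNA strand, had 10.49, 10.30 and 10.07 under miR-1, 10.49, 10.57 and 10.61 under miR-34a and 10.57, 10.73 and 10.46 under miR-22, against 10.96, 11.05 and 11.13 in the control. It fell by 0.76 ± 0.09 under miR-1 (adjusted P = 7e-07), by 0.49 under miR-34a and by 0.46 under miR-22. Rpa2 fell by 1.00 under miR-1, by 0.71 under miR-22 and by 0.63 under miR-34a. The small subunit Rpa3 had a different pattern. It had 9.93, 10.05 and 9.66 under miR-365, against 10.30, 10.49 and 10.37 in the control, and fell by 0.51 ± 0.11 (adjusted P = 0.002), while Rpa1 and Rpa2 did not pass under miR-365. Against the other 6 mimics Rpa3 was lower under miR-365 by -0.29 ± 0.09 (adjusted P = 0.013).

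Fen1, which trims the flaps of Okazaki fragments, and Lig1, which seals them, both fell under miR-1, miR-22, miR-34a and miR-365. Lig1 had 9.32, 9.11 and 8.72 under miR-1, against 10.17, 10.19 and 10.27 in the control, and the range over the other 18 mimic values was 9.56 to 10.31. The difference under miR-1 was -1.16 ± 0.12 (adjusted P = 2.9e-07). Fen1 had 8.82, 8.76 and 8.56 under miR-365, against 9.43, 9.45 and 9.39 in the control. It fell there by 0.71 ± 0.13 (adjusted P = 0.00027) and was lower than under the other 6 mimics by -0.28 ± 0.10 (adjusted P = 0.035).

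In nucleotide supply, 4 of the 5 genes fell under miR-1, 4 under miR-34a, 4 under miR-365, 1 under miR-22 (the dUTPase gene Dut) and 1 under Let-7b. Tk1, the thymidine kinase of dividing cells, had 10.26, 10.22 and 9.55 under miR-1, 10.35, 10.88 and 10.54 under miR-365 and 10.82, 10.53 and 10.37 under Let-7b, against 11.31, 11.28 and 11.27 in the control. All 9 mimic values were below the control values. The differences were -1.28 ± 0.15 under miR-1, -0.70 ± 0.15 under miR-365 and -0.72 ± 0.15 under Let-7b (adjusted P = 0.0019 for Let-7b), the last being the largest decrease of any replication gene under Let-7b. Tyms, the thymidylate synthase, had 10.11, 10.21 and 9.62 under miR-1 and 10.33, 10.78 and 10.46 under miR-365, against 10.93, 11.11 and 11.15 in the control. It fell by 1.08 ± 0.12 under miR-1 (adjusted P = 3.4e-07) and by 0.54 ± 0.12 under miR-365 (adjusted P = 0.0016).

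The subunits of ribonucleotide reductase, the enzyme that makes deoxynucleotides, differed from each other. Rrm1, the large subunit, had 12.02, 11.90 and 11.65 under miR-1 and 12.02, 12.16 and 11.98 under miR-365, against 12.39, 12.43 and 12.49 in the control. It fell by 0.58 ± 0.07 under miR-1 (adjusted P = 8.3e-07), by 0.38 under miR-365 and by 0.26 under miR-34a. Rrm2, the small subunit whose supply is tied to S phase, had 12.45, 12.26 and 12.10 under miR-1, against 12.37, 12.41 and 12.31 in the control. These values overlapped, and the difference of -0.10 had a 95% interval of -0.33 to 0.13 (adjusted P = 0.65), and that interval lies above the -0.58 of Rrm1. Rrm2 passed under no mimic. Its largest difference was -0.33 under Let-7b (adjusted P = 0.063), which passed under some of the alternatives, with the dimmest 40% of genes left out (adjusted P = 0.044) among them. With the experiment as a block Rrm2 passed both under Let-7b, at -0.33 (adjusted P = 0.011), and under miR-22, at -0.27 (adjusted P = 0.03). Its 3 values under miR-29a, 12.59, 12.43 and 12.59, lay above all control values, and against the other 6 mimics Rrm2 was higher under miR-29a by 0.36 ± 0.08 (adjusted P = 0.0041).

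Slbp binds the stem-loop of histone messenger RNAs and is needed for their processing and translation. Its levels were 9.52, 9.14 and 9.32 under miR-1 and 9.30, 9.59 and 9.13 under miR-22, against 10.19, 10.36 and 10.36 in the control. The other mimic values were 10.13, 10.04 and 10.12 under miR-34a, 10.08, 10.07 and 10.01 under miR-365, 10.25, 10.14 and 10.05 under Let-7b, 10.10, 10.15 and 10.33 under miR-29a and 10.17, 10.12 and 10.05 under miR-145. The miR-1 and miR-22 values were 9.59 or lower and all others 10.01 or higher. Slbp fell by 0.97 ± 0.10 under miR-1 (adjusted P = 2.2e-07) and by 0.96 ± 0.10 under miR-22 (adjusted P = 7.1e-07), and did not pass under any other mimic. Against the other 6 mimics it was lower under miR-22 by -0.65 ± 0.08 (adjusted P = 2.3e-06), the largest such difference of the 39 genes under miR-22. Chaf1b, a subunit of chromatin assembly factor 1, had 9.61, 9.55 and 8.94 under miR-1, 10.01, 10.10 and 10.11 under miR-34a and 10.02, 10.27 and 9.92 under miR-365, against 10.61, 10.81 and 10.80 in the control. It fell by 1.37 ± 0.13 under miR-1 (adjusted P = 5.4e-08), by 0.66 under miR-34a and by 0.67 under miR-365. Chaf1a, the large subunit, fell by 1.02 under miR-1 and was 1 of the 2 genes that fell under miR-29a, by 0.30 ± 0.09 (adjusted P = 0.025). Neither Chaf1a nor Rfc2 passed under miR-29a without the second or the third miR-29a experiment, or without the first or the third control.

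Each mimic was also set against the mean of the other 6, which tests whether a decrease was larger under that mimic. Under miR-1, 33 of 39 genes were lower than under the other mimics (13.7% of all genes) and 1 was higher (15% of all genes). Under miR-34a 4 were lower (8.18%), Orc2, Gins4, Pold2 and Rfc1, and 1, Slbp, was higher (5.9%). Under miR-22 5 were lower (6.33%), namely Slbp, Rfc1, Rpa2, Orc5 and Gins3. Under miR-365 4 were lower (11.3%), Cdc45, Fen1, Rpa3 and Rrm1, and 5 were higher (15.8%), Orc5, Gins4, Pold3, Rfc1 and Rfc2. Both counts under miR-365, and the count of lower genes under miR-34a, lay near the shares of all genes. Without the third miR-22 experiment 2 were lower under miR-22, and without the third miR-365 experiment 0 were lower under miR-365. Without the first or the second miR-365 experiment 2 were higher under miR-365, without the first Let-7b experiment 9 were higher under Let-7b, and without the first miR-145 experiment 14 were higher under miR-145 (19 without the third). Under miR-29a 1 was lower (8.26%) and 21 were higher (8.8%), under Let-7b 18 were higher (8.19%) and under miR-145 22 were higher (10.3%). The mean of the other mimics holds the low miR-1 values, and with miR-1 left out of it 14 genes were higher under miR-29a (8.04% of all genes) and 14 under miR-145 (9.29%). Under Let-7b 6 were then higher (7.75% of all genes) and 2 lower (9.91%). In the same comparison 12 were lower under miR-34a (8.51%), 10 under miR-365 (11.7%) and 9 under miR-22 (6.36%). With the experiment as a block and miR-1 kept in the mean, 9 were higher under miR-365, 2 under miR-22 (Pole2 and Tk1) and 2 under miR-34a (Slbp and Rpa3). Lower members with the block were 6, 5 and 6 in the same order of mimics. Calls over all 19938 genes were then 6508, 4358 and 4004, lower and higher together. They give no share of all genes for the higher counts alone.

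Other genes of replication moved with these. Of 48 further genes of the pathway 46 were measured, and under miR-1 38 fell, beside 10.5% of all genes, and 2 rose, beside 13.2% of all genes. The counts that fell were 28 under miR-34a (6.06% of all genes), 22 under miR-365 (8.33%), 21 under miR-22 (5.67%) and 9 under Let-7b (5.46%). They were 4 under miR-29a (4.78%) and 4 under miR-145 (3%), or 2 under miR-145 without the third miR-145 experiment. All 12 licensing and helicase genes, the factors that load the MCM ring and the ring itself, fell under miR-1, with a median of -1.08. The largest decreases under miR-1 were those of Hells, a chromatin remodeller (-1.82 ± 0.15), and Mcm3, a subunit of the MCM ring (-1.55 ± 0.12). The 2 that rose under miR-1 were Pold4, a small polymerase delta subunit (0.66 ± 0.10, adjusted P = 2.3e-05), and Rrm2b, the p53-induced form of the small reductase subunit (0.38 ± 0.10, adjusted P = 0.0084). Pold4 also rose under Let-7b (0.54 ± 0.10) and miR-365 (0.52 ± 0.10). Of the other delta subunits Pold1 and Pold2 fell under miR-365, and Pold3 differed there by -0.20 without passing (adjusted P = 0.098). With the experiment as a block Pold3 passed narrowly under miR-365 (adjusted P = 0.05 after rounding).

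Markers of division and differentiation were followed beside the replication genes. The division marker Mki67 fell under miR-1 (-0.70 ± 0.14, adjusted P = 0.00049) and passed under no other mimic, with differences of -0.40 under miR-34a, -0.18 under miR-365 and -0.05 under miR-22. Top2a, a topoisomerase of dividing cells that is also counted among the further pathway genes, fell under miR-1 (-1.06), miR-365 (-0.59), miR-34a (-0.54) and miR-22 (-0.47). The mean of 8 myotube genes differed by 0.75 under miR-1, 0.72 under miR-34a, 0.61 under miR-22, 0.44 under miR-29a, 0.34 under miR-145 (0.31 without the third miR-145 experiment), 0.25 under miR-365 and -0.38 under Let-7b. Single experiments ranged from -0.82 to -0.10 under Let-7b and from -0.02 to 0.64 under miR-145. Both ranges reached into that of the control, -0.12 to 0.11. Of these 8 genes 6 rose under miR-1 (13.2% of all genes), 5 under miR-34a (5.62%), 4 under miR-22 (8.82%) and 2 under miR-29a (5.54%). Under miR-365, where 20 replication genes fell, 0 of the 8 passed as higher (11.7% of all genes). Whether cell division or differentiation accounts for the levels of the replication genes was not tested.

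The promoters are shown because so many of the genes moved together. RefSeq promoters of GRCm38.p6, from 250 bases before to 50 after the gene start, were given for 33 of the 39 genes, 5 of which have several. An E2F-type word, TTTCCCGC, TTTCGCGC, TTTGCCGC or TTTGGCGC on either strand, was found in 9 of the 33 (27.3%) and in 704 of 27025 genes (2.6%). The 9 were Orc1, Orc3, Gins3, Pola1, Pold1, Pold3, Pole2, Rfc3 and Lig1. Their median difference under miR-1 was -1.16, and that of the 24 without the word was -0.73, as a description only. CCAAT on either strand was found in 19 of the 33 (57.6%), beside 41.1% of all genes, and TTTGAA on either strand in 4 of the 33 (12.1%), beside 20.2%. A match is only a run of letters, and binding was not measured. The sequences below are written 5′ to 3′ along the gene's strand, with the E2F-type words in capitals. The promoters of Orc1, Pola1, Rfc3 and Lig1 hold such a word and belong to genes that fell by more than 1 under miR-1. The promoter of Orc3 also holds one although Orc3 did not fall. That of Rrm2, which did not fall, holds none, but neither do those of Chaf1b (-1.37 under miR-1), Tk1 (-1.28), Prim1 (-1.21), Tyms (-1.08), Fen1 (-1.06) and Chaf1a (-1.02), which did.
Orc1, chr4:108579204-108579503, plus strand: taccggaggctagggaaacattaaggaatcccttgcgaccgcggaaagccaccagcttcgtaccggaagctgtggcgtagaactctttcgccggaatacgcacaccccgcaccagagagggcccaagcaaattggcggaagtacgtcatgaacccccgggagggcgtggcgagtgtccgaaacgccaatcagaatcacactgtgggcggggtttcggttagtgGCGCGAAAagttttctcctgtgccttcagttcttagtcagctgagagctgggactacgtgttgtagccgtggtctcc
Pola1, chrX:93632106-93632405, minus strand: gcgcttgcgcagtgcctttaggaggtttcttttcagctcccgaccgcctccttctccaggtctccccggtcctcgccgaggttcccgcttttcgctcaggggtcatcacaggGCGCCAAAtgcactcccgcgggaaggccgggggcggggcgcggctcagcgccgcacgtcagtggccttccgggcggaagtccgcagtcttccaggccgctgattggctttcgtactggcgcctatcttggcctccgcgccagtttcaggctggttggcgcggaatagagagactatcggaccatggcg
Rfc3, chr5:151651159-151651458, minus strand: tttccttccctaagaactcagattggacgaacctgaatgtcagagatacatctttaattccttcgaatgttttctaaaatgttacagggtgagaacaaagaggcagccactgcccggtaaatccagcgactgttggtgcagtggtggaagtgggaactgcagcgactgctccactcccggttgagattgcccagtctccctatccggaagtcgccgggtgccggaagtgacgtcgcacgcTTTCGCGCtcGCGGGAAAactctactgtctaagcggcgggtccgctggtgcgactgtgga
Lig1, chr7:13278576-13278875, plus strand: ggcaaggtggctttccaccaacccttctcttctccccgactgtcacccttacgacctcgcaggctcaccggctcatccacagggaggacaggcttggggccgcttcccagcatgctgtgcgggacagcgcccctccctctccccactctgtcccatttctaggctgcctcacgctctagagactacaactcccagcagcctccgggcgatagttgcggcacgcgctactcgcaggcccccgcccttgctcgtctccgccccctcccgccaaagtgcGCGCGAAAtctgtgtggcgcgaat
Orc3, chr4:34614893-34615192, minus strand: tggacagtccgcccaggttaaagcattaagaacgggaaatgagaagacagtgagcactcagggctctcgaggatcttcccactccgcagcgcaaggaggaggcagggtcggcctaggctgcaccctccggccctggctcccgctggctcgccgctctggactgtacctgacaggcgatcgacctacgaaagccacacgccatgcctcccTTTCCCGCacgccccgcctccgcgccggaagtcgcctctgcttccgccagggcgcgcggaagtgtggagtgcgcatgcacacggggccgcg
Rrm2, chr12:24708004-24708303, plus strand: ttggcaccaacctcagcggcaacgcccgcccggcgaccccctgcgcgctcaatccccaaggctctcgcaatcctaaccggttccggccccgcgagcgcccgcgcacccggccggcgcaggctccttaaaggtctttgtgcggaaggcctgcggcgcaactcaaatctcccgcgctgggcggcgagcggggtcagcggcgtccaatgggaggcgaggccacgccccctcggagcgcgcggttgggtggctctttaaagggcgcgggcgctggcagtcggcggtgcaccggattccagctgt

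The untransfected pair, labelled as differentiated myotubes and as proliferating myoblasts, has 1 array each and therefore no test, and the second of them carried the high Myog and Ckm levels given above. In the myotube array 37 of 39 replication genes were lower than in the array labelled as proliferating myoblasts, with a median difference of -0.75 beside -0.02 over all genes. A decrease of at least 2-fold was seen in 13 of 39, beside 2.01% of all genes, and 0 of 39 were higher by that much. The 5 largest differences were those of Tk1, with 8.74 in myotubes and 10.66 in myoblasts (-1.92), Rfc5 (-1.57), Lig1 (-1.37), Gins1 (-1.32) and Pola1 (-1.32). The 5 at the other end were Orc4, with 9.37 in myotubes and 9.05 in myoblasts (0.32), Orc3 (0.11), Orc2 (-0.15), Gins4 (-0.19) and Rfc2 (-0.23). The polymerases and primase had a median of -1.08 and the origin recognition complex a median of -0.22. The control-transfected mean was above the untransfected myoblast array for 38 of 39 genes, by a median of 0.48, and the 8 myotube genes were lower in the control-transfected cells by a median of 1.61. Mki67 and Top2a were higher in the control-transfected cells by a median of 0.66. Transfection, culture and array cannot be told apart.

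Across the 39 genes the myotube-minus-myoblast difference and the miR-1-minus-control difference had a Pearson's r of 0.671 and a Spearman's rho of 0.643, beside an r of 0.461 over all genes. These arrays are separate but were normalised together, and genes are not independent replicates. For miR-365 the values were 0.606 and 0.641, beside an r of 0.275 over all genes. For the other mimics the r over the 39 genes was 0.278 for Let-7b (0.0616 over all genes), 0.225 for miR-34a (0.232), 0.185 for miR-22 (0.265), 0.081 for miR-29a (0.124) and -0.192 for miR-145 (0.0976). Orc3 and Orc4 were at the top end in both comparisons. Rfc5 and Rrm2 departed from the rest, since Rfc5 was 2.96-fold lower in the myotube array but differed by -0.36 under miR-1, and Rrm2 was 1.45-fold lower in the myotube array but differed by -0.10 under miR-1.

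**Figure D4:**
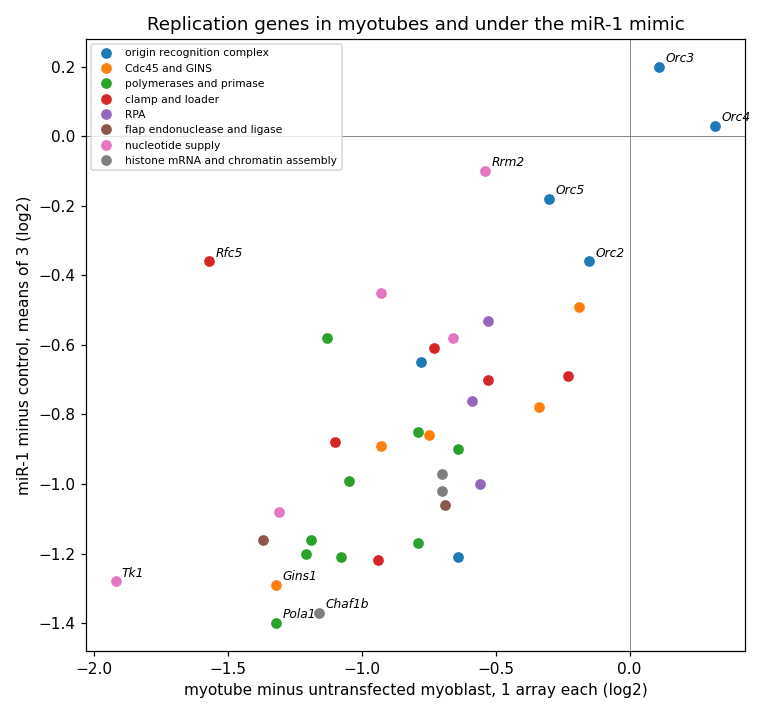
Difference under miR-1 (log2 mean of 3 miR-1 values minus mean of 3 control values, vertical axis) against the difference between the myotube array and the untransfected myoblast array (log2, 1 array each, horizontal axis) for the 39 genes, coloured by role. Orc3 and Orc4 sit at the upper right, Pola1, Gins1, Tk1 and Chaf1b at the lower left, and Rfc5 and Rrm2 lie above most genes with a like myotube difference.

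Of the 39 genes 4 were measured by a second probe set. Under miR-1 the second probe sets differed from control by -0.61 for Pcna, -1.28 for Tk1, -1.06 for Slbp and -0.28 for Rpa3, against -0.61, -1.28, -0.97 and -0.53 for the probe sets used. Both probe sets of each of these genes were lower under miR-1, and signal from near-identical copies of a gene cannot be separated on these arrays.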

How the data were processed

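Total RNA of 29 C2C12 cultures was hybridised to single-colour Affymetrix arrays. The deposited log2 values were used unchanged, and per the submitters' processing notes they came from RMA in Affymetrix Expression Console 1.1. The genome build and any filters are not given in the sources used here. Of 35556 probe sets, 21789 carried 1 symbol and 1621 several, and 12146 had none listed. The 19938 genes were fitted in limma 3.58.1 (R 4.3.3) with 1 mean for each of 8 groups and a variance trend, without a filter on dim genes. All tests were two-sided, with Benjamini-Hochberg adjustment over all genes at 0.05. Array number limits the precision. Errors are standard errors of the fit. Values with the same experiment number deviated together. Each of the 24 had a higher mean correlation with the values of its own number in other groups than with those of either other number. Of 21 pairs with the control, 18 correlated above a chosen cutoff of 0.1. Every pair did so for miR-22, miR-29a, miR-34a and miR-365, and these were taken as paired. The cutoff sets which mimics count as paired. Technical repeats were matched by number, and their deviations had a consensus correlation of 0.607. Promoter words were counted in Python.

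The members and gene lists were chosen with earlier results of these data known. Named genes were drawn, per mimic and role group, from those with large differences from control among those that passed. Genes that passed as higher or against the other 6 mimics were a further source. So were genes that passed under no mimic or all 7, and the 5 largest and 5 smallest differences in myotubes. Not every gene of these kinds is named. Most that passed against the other 6 mimics as lower under miR-1, or higher under miR-29a, Let-7b or miR-145, are only counted. The genes with several values or several mimics, those with 5 mimics and the second probe sets were added after their values had been seen. Alternatives changed the block, normalization, probe set, filter, variance model, controls and samples.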

Additional observations from a re-analysis of the deposited data

How the results depend on the processing

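No median over the replication genes changed sign, and the counts of lower genes under miR-1, miR-34a and miR-365 stayed within 1.5 times of the reported ones under every alternative run. Only the median under miR-34a moved beyond its replicate spread, to -0.43 with arrays centred on their median. With the replicate block, counts of lower genes were 11 under Let-7b and 7 under miR-29a. Calls over all 19938 genes with this block, lower and higher together, were 3298 and 3142. With it the counts of higher genes were 1 under Let-7b (Rfc5), 1 under miR-1 (Orc3, adjusted P = 0.011) and 1 under miR-365 (Gins4). Against the other 6 mimics it gave 2 lower under Let-7b and 2 higher under miR-22, 2 higher under miR-34a and 9 higher under miR-365. The replicate block ended no call of a named gene, and only some of these mimics passed the cutoff of 0.1 for pairing with the control. The technical-pair block gave 1 higher gene each under Let-7b, miR-1 and miR-365, and 1 lower under Let-7b against the other mimics. Use of the first control arrays alone gave 1 higher gene under Let-7b. Without the dimmest 40% of genes, 1 was higher under Let-7b and 1 under miR-365, and against the other mimics 1 was lower under Let-7b and 8 were higher under miR-365. A fit of 1 mimic and the control gave 9 lower and 1 higher under Let-7b, 1 lower under miR-29a and 0 lower under miR-145. Median centring gave 0 higher under miR-145, and against the other mimics 0 higher under miR-34a and 8 under miR-365. Further quantile normalization gave, against the other mimics, 0 lower under miR-29a and 2 higher under miR-34a. The mean of all probe sets gave 0 higher under miR-34a there, and a fit without the variance trend gave 1 lower under miR-145. The cause of these shifts was not tested.

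Leaving out 1 experiment gave 34 to 35 lower genes under miR-1, 21 to 25 under miR-34a, 15 to 22 under miR-365, 13 to 25 under miR-22, 4 to 7 under Let-7b, 0 to 2 under miR-29a and 0 to 2 under miR-145 (0 without miR-145 replicate 3, control replicate 2 or control replicate 3), and fewer samples were then fitted. Higher genes were 0 to 1 under miR-1 and 0 to 1 under miR-145. Against the other mimics the ranges of lower genes were 0 to 2 for Let-7b, 2 to 4 for miR-22, 0 to 1 for miR-29a and 0 to 6 for miR-365. The ranges of higher genes were 9 to 15 for Let-7b, 0 to 1 for miR-1, 0 to 0 for miR-34a, 14 to 19 for miR-145 and 2 to 6 for miR-365. These low counts came without the first experiment for Let-7b (9) and miR-145 (14) and without the third for miR-22 (13) and miR-365 (0). Of the single-gene differences recomputed with 1 experiment left out, 882 still passed, 177 did not and 0 changed sign. Alternatives chosen after seeing the data left miR-1 out of the mean of the other mimics, which gave 2 lower and 6 higher under Let-7b, 9 lower under miR-22, 12 lower and 0 higher under miR-34a, 14 higher under miR-145, and 10 lower and 3 higher under miR-365. A fit without the third miR-145 array moved no count of the other mimics by more than 1. A threshold of 1.5-fold counted 28 genes lower in the myotube array. The number of arrays limits the precision, and the single untransfected arrays allow no test.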
